A study of Mus musculus with 20 samples.

Results

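The genes described here are 8 that sense or clear extracellular nucleotides and related lipids: P2ry12, P2ry13, P2ry6, Gpr34, P2rx4, P2rx7, Entpd1 and Adora3. They were listed by name, from what their products do, with earlier results of these data known. All 8 were found in the count files among 54838 genes, and all 8 passed the filter on low counts that left 12680 genes to test. RNA came from microglia, the resident macrophages of the brain, sorted as CD11b-high and CD45-low cells from frontal cortex at postnatal day 40. Each of the 20 libraries was made from 1000 cells and is taken as 1 mouse, because the protocol states the cell number per mouse.

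The genotype labels are WT, with n = 4, and C4-/-, with n = 5, plus 3 genotypes with human C4: hC4A/- with n = 5, hC4B/- with n = 4 and hC4A/A with n = 2. C4 is a complement protein that tags targets for removal, and hC4A and hC4B stand for its human forms, introduced as transgenes. No agent was given. The labels do not say whether the mice with human C4 also carry mouse C4, nor their strain, sex or transgene promoter. With libraries from separate mice but no stated litter or preparation date, the p-values measure the spread between these libraries.

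Cells that are damaged or active release ATP, which is cut outside the cell to ADP, AMP and adenosine. Microglia read this gradient with G protein-coupled P2Y receptors, with P2X ion channels that ATP opens, and with adenosine receptors. P2ry12 responds to ADP and steers microglial processes towards injury and towards neurons, and it is among the best known markers of resting microglia.

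With edgeR, none of these 8 genes passed the test between genotypes, and the libraries within a genotype spread widely. Of the other tools, DESeq2 also called 0, and limma-voom made 3 calls in 2 pairs, given below. In a quasi-likelihood test for any difference among the 5 genotypes (edgeR, Benjamini-Hochberg adjustment over all genes tested), 0 of 8 passed, with adjusted p from 0.595 to 1.00, against 0.118% of all genes tested. None of the 8 reached an unadjusted p under 0.05 in that test, where 12% of all genes did. Over all 20 libraries P2ry12 was the steadiest of the 8, with 525 ± 154 CPM (counts relative to library size; SD, n = 20), and Adora3 was the scarcest, with 200 counts in all 20 libraries together. CPM here are scaled by the trimmed mean of M values (TMM), which sets library sizes by the bulk of the genes.

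Gene counts per library ran from 855099 to 2735181. Satellite-like predicted genes took 13.3% to 81.0% of them. In 4 libraries, called broad below, over 27000 genes had at least 1 count, against 11348 to 23912 in the other 16: replicate 3 of C4-/-, replicates 2 and 3 of hC4B/- and replicate 2 of hC4A/A. Mouse C4b, the targeted gene, went against the labels: WT libraries had 0, 0, 2 and 0 counts of it, and each of the other 16 had 4 to 428. The 4 broad libraries held 157 to 428 of these and the other 12 held 4 to 104. Groups are therefore named by their labels only, and every direction below is between libraries so labelled. The WT libraries alone carry identifiers of another form in the deposit, so a WT-specific difference and a separate series of samples cannot be told apart. The 20 microglia marker genes were present in every genotype, with a summed level of 6475 to 24904 CPM per library, the lowest in a broad library. Summed markers of neutrophils ran from 102 to 1424 CPM in WT and from 0 to 176 in the other genotypes.

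The 8 genes lie on 5 chromosomes of GRCm38 and form 2 neighbouring pairs. P2ry12 (ENSMUSG00000036353) spans chr3:59216272-59262871 on the minus strand, and P2ry13 (ENSMUSG00000036362) lies 5389 bases away at chr3:59207892-59210882 on the same strand. Both sit inside Med12l, which runs on the other strand and shares 9 exon bases with P2ry12. P2rx7 (ENSMUSG00000029468, chr5:122643911-122691432) and P2rx4 (ENSMUSG00000029470, chr5:122707544-122729738) follow each other on the plus strand with 16111 bases between them. Entpd1 (ENSMUSG00000048120) spans chr19:40612366-40741602 on the plus strand, P2ry6 (ENSMUSG00000048779) chr7:100937630-100974649 on the minus strand, and Gpr34 (ENSMUSG00000040229) chrX:13632089-13640858 on the plus strand, inside Cask. Adora3 (ENSMUSG00000000562) spans chr3:105870858-105908926 on the plus strand and shares 779 of its exon bases (20.9%) with Tmigd3. Its count is uncertain for that reason. Counts were taken without regard to strand, so reads from an overlapping gene on the other strand cannot be told apart.

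Promoter sequences were taken from RefSeq (GRCm38.p6), 250 bases before to 50 after the start, for 6 of the 8 genes. P2ry12 and Entpd1 are shown because they were the steadiest pair of the 8 across all 20 libraries, and Adora3 because it held the largest difference and 2 motif matches. Capitals mark matches, on either strand, to GAGGAAGT (the site of the macrophage factor PU.1), the composite ETS-IRF element (a joint site of ETS and IRF factors, which shares the GGAA core of the first) or TGANTCA (the AP-1 site).

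P2ry12 (chr3:59262936-59263235, minus strand): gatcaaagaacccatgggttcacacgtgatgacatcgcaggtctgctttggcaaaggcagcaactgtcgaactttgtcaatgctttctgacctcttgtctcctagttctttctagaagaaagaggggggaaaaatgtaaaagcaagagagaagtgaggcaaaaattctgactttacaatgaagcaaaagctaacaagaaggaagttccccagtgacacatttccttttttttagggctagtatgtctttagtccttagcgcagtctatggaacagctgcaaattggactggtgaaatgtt

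Entpd1 (chr19:40612116-40612415, plus strand): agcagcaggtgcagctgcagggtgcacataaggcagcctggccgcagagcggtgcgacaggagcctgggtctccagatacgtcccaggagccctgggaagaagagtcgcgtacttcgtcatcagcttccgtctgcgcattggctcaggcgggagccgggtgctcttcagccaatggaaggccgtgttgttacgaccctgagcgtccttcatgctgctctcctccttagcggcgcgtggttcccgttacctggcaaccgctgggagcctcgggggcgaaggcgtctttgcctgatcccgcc

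Adora3 (chr3:105904171-105904470, plus strand): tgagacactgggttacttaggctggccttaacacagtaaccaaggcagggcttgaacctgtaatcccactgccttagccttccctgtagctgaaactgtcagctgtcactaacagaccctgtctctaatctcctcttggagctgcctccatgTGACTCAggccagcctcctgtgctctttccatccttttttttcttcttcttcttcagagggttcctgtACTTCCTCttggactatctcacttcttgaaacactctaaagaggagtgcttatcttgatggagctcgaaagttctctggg

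None of these letters were found in the windows of P2ry12, P2ry13, P2rx4 and Entpd1. The Adora3 window held GAGGAAGT on the opposite strand, 30 bases before the start, and TGANTCA 98 bases before it. That RefSeq start lies 33563 bases from the start of the gene in the GENCODE annotation, so the window belongs to one of several possible starts. The P2rx7 window held TGANTCA 249 bases before its start. Of 32851 promoter windows of this length, 3.202% held GAGGAAGT, 2.72% the ETS-IRF element and 7.81% TGANTCA.

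Levels between genes were compared per kilobase of exon, averaged over the 20 libraries. P2ry12 stood at 206 CPM per kb, rank 103 of 12676 genes with a length, and Gpr34 at 201, rank 106. Entpd1 followed with 51.5 CPM per kb (rank 417), P2ry13 with 34.9 (rank 632) and P2rx4 with 21.3 (rank 1091). P2rx7 and P2ry6 were close to each other at 12.8 and 12.7 CPM per kb. Adora3, at 1.63 CPM per kb, ranked 7848. The ADP receptor P2ry12 and the lipid receptor Gpr34 were thus the highest of these transcripts per length, and the adenosine receptor Adora3 the lowest.

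**Figure D1:**
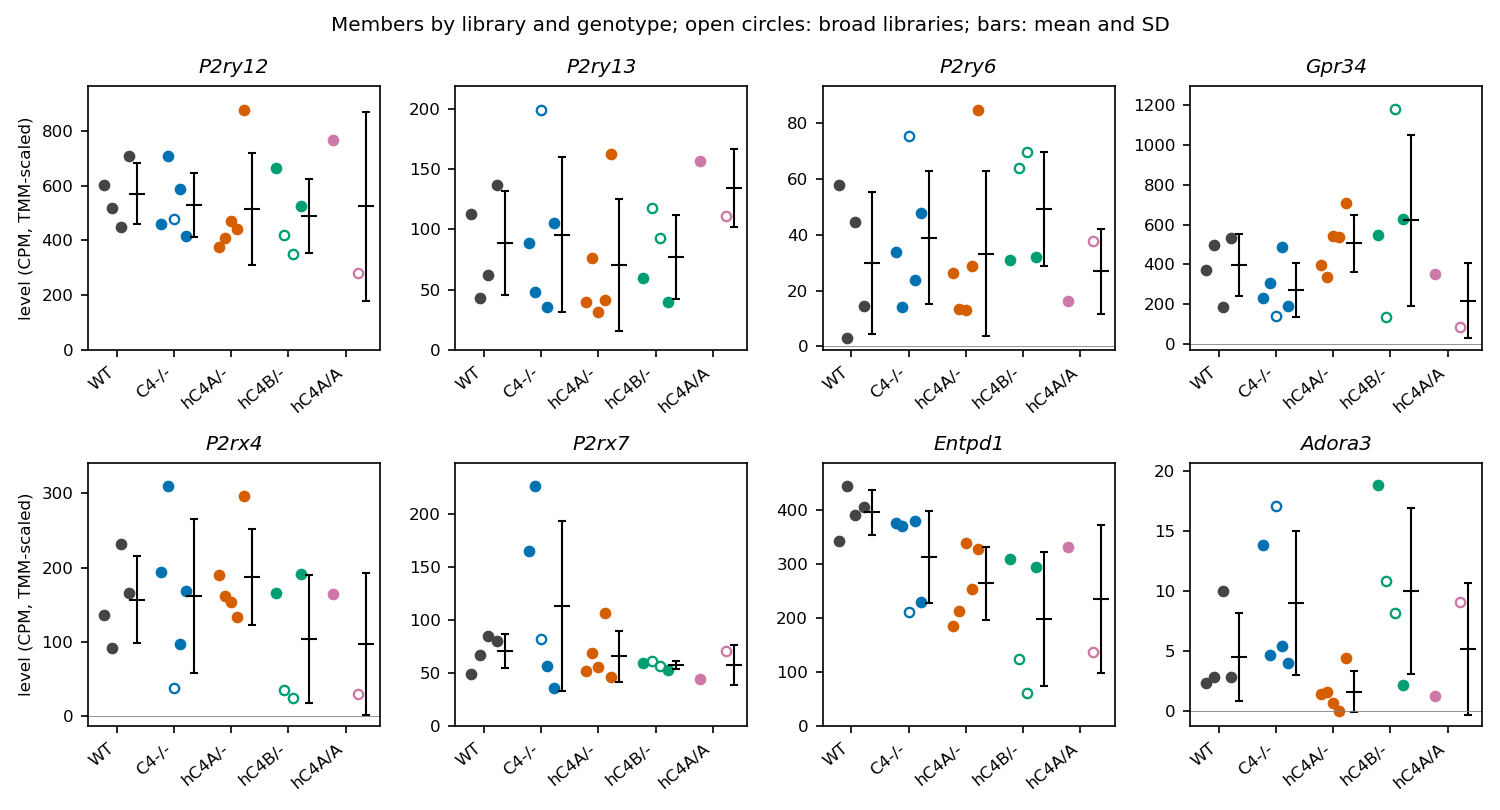
Level of each of the 8 genes (CPM, TMM-scaled, y axis) in the 20 libraries, by genotype label (x axis). Filled circles are single libraries, open circles the 4 broad libraries, and the bars beside them the mean and SD of the genotype; the P2rx4 panel shows all 4 open circles at 24.5 to 38.0 CPM, below every filled circle.

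The ADP receptors come first. P2ry12 stood at 604, 519.6, 449 and 709 CPM in the 4 WT libraries, and at 460.1, 707, 477, 587 and 415 in the 5 C4-/- libraries. It stood at 378, 407, 469.6, 441 and 876 CPM in hC4A/-, at 664, 419, 349.8 and 524 in hC4B/-, and at 768 and 279.9 in hC4A/A. Every genotype overlapped every other, and the highest and second highest libraries came from hC4A/- and hC4A/A. By mean the order was WT (570 ± 112), C4-/- (529 ± 118), hC4A/A (524 ± 345), hC4A/- (514 ± 205) and hC4B/- (489 ± 137), and no neighbours in it differed by as much as 1 SD. Values are mean ± SD with the n given above. The pair with the smallest p was hC4B/- against WT, with a log2 fold change of -0.22 ± 0.66 (SE), a 95% interval of -1.62 to 1.18 and an adjusted p of 0.896 by edgeR's quasi-likelihood test. The sign of that value turned to 0.18 without the broad libraries. Over 9 of the 10 pairs of genotypes the log2 fold changes of P2ry12 ran from -0.22 to 0.07, while their 95% intervals reached from -1.85 to 1.68. The tenth pair, hC4A/A against hC4B/-, was added after the data were seen and gave 0.10 (95% interval -1.61 to 1.81). In bulk RNA of sorted cells, fewer cells of a type and less RNA per cell cannot be told apart.

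P2ry13 encodes a second ADP receptor of the same subfamily, which acts on microglial process shape. It ran from 31.6 to 199 CPM over the 20 libraries. WT averaged 88.8 ± 43.5 CPM and C4-/- 95.6 ± 64.5, and among the human C4 genotypes hC4A/- averaged 70.5 ± 54.5, hC4B/- 77.4 ± 34.9 and hC4A/A 134 ± 32.2. The 2 hC4A/A libraries, at 111 and 157 CPM, lay within the ranges of C4-/- (35.99 to 199) and hC4A/- (31.6 to 163), and overlapped WT (43.4 to 137). Its pair with the smallest p was hC4A/A against hC4A/-, with a log2 fold change of 0.93 ± 0.79 (95% interval -0.76 to 2.61, adjusted p = 0.722, edgeR). Although it lies next to P2ry12, its levels followed those of P2ry12 only loosely, with a Spearman correlation of 0.18 over the 20 libraries and 0.42 over the 16 that were not broad.

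P2ry6 encodes the UDP receptor that promotes phagocytosis by microglia. It ran from 2.85 to 84.7 CPM, a 29.8-fold range, with the lowest value in WT replicate 2 and the highest in hC4A/- replicate 5. The highest mean was that of hC4B/- (49.1 ± 20.5 CPM), followed by C4-/- (39.0 ± 23.9), hC4A/- (33.2 ± 29.7), WT (29.9 ± 25.5) and hC4A/A (26.8 ± 15.2), and all ranges overlapped. The pair with the smallest p was hC4B/- against WT, with a log2 fold change of 0.71 ± 0.81 (95% interval -1.02 to 2.44, adjusted p = 0.698, edgeR). It was 0.31 without the broad libraries, which hold the 2 highest hC4B/- values, 63.9 and 69.4 CPM.

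Gpr34 encodes a P2Y-like receptor for lysophosphatidylserine that is enriched in microglia. It stood at 372, 499, 187 and 532 CPM in WT, and at 229, 309, 142, 486 and 189.7 in C4-/-. It stood at 399, 339, 544, 539 and 707 CPM in hC4A/-, at 546, 135, 1177 and 629 in hC4B/-, and at 351 and 84.2 in hC4A/A. Among the broad libraries Gpr34 was both lowest (84.2 to 142 CPM in 3 of them) and highest of all, at 1177 CPM in hC4B/- replicate 3. The order of means was hC4B/- (622 ± 429), hC4A/- (506 ± 144), WT (398 ± 156), C4-/- (271 ± 135) and hC4A/A (218 ± 189). The means of hC4B/- and C4-/- differed by a log2 fold change of 1.20 ± 0.69 (95% interval -0.27 to 2.66), which did not pass (adjusted p = 0.990, edgeR). Without the 4 broad libraries the value was 1.18. The added pair, hC4A/A against hC4B/-, differed more by fold, with a log2 fold change of -1.51 ± 0.96 (95% interval -3.55 to 0.52, adjusted p = 1 by edgeR), and of -0.96 without the broad libraries, which leave 1 hC4A/A library, assumed to vary like the other groups.

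Of the ATP-gated channels, P2rx4 is a fast channel that microglia raise after nerve injury. It stood at 137, 92.5, 232 and 166 CPM in WT, and at 194, 310.5, 38.0, 97.8 and 169 in C4-/-. It stood at 191, 162, 154, 134 and 297 CPM in hC4A/-, at 165, 35.0, 24.5 and 191 in hC4B/-, and at 165 and 29.8 in hC4A/A. The 4 lowest values were those of the 4 broad libraries, from 24.5 to 38.0 CPM, and the other 16 libraries lay from 92.5 to 310.5. The 2 sets of libraries did not overlap, and the median of the 16 was 5.12 times that of the 4. How many of all genes separated in this way was not counted. By the log2 ratio of medians given below, P2rx4 (-2.32) lay at the lower quartile of 3996 genes, so drops of this size were common. hC4A/- against hC4B/- had a log2 fold change of 0.85 ± 0.72 (187 ± 64.4 against 104 ± 86.6 CPM, 95% interval -0.68 to 2.38, adjusted p = 0.572, edgeR). Without the broad libraries it was -0.09, so the higher mean in hC4A/- was not seen among the other libraries.

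P2rx7 opens at high ATP and is the channel best known for starting inflammasome assembly. It ran from 35.9 to 226 CPM, and the means were highest in C4-/- (113 ± 79.8), then WT (70.6 ± 15.97), hC4A/- (66.0 ± 24.1), hC4A/A (57.7 ± 19.2) and hC4B/- (57.5 ± 3.85). The C4-/- mean rested on 2 of 5 libraries, at 226 and 165 CPM, while the other 3 lay at 35.9, 56.4 and 82.6. In hC4B/- all 4 libraries lay between 52.6 and 61.5 CPM, broad ones included, a range that other genotypes overlapped. hC4B/- against C4-/- had a log2 fold change of -0.97 ± 0.62 (95% interval -2.29 to 0.34, adjusted p = 0.990, edgeR), and of -0.56 without C4-/- replicate 2. P2rx7 and P2rx4, neighbours on the chromosome, had a Spearman correlation of -0.01 over 20 libraries and 0.11 over 16.

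Entpd1 encodes CD39, the enzyme on the cell surface that turns ATP and ADP into AMP and so ends P2 signals and feeds adenosine receptors. It stood at 343, 444, 392 and 406 CPM in WT, and at 377, 370.2, 212, 381 and 231 in C4-/-. It stood at 186, 214, 339, 255 and 329 CPM in hC4A/-, at 311, 124, 62.6 and 296 in hC4B/-, and at 332 and 139 in hC4A/A. All 11 libraries with human C4 lay below all 4 WT libraries on this scale, and C4-/- overlapped both. That separation was noticed after the values were seen. It held for 23 of 12680 genes (0.181%), with 8 more genes separated in the other direction. Taken pair by pair, 1.4% of genes did not overlap between hC4A/- and WT, 3.75% between hC4B/- and WT, and 11.2% between hC4A/A and WT.

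Fold changes of Entpd1 did not pass in any pair with edgeR or DESeq2, and limma-voom called hC4B/- against WT. Against the WT mean of 396 ± 41.8 CPM, C4-/- averaged 314 ± 85.0, hC4A/- 265 ± 67.8, hC4B/- 198 ± 124 and hC4A/A 236 ± 137. hC4B/- against WT had a log2 fold change of -0.997 ± 0.66 (95% interval -2.41 to 0.41, adjusted p = 0.485, edgeR), and of -0.24 without the broad libraries. The other 3 comparisons share the same 4 WT libraries, and had log2 fold changes of -0.33 in C4-/-, -0.58 in hC4A/- and -0.75 in hC4A/A. The separation also depended on the scaling of the libraries. With median-of-ratios scaling 2 of the 11 human C4 libraries lay above the lowest WT library, with the summed counts of the microglia markers as library size 5 did, and with satellite-like genes left out of plain library sizes 6 did. Thus Entpd1 was lower by mean in each human C4 genotype than in WT under all 4 scalings, but the groups separated fully only with TMM scaling.

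**Figure D2:**
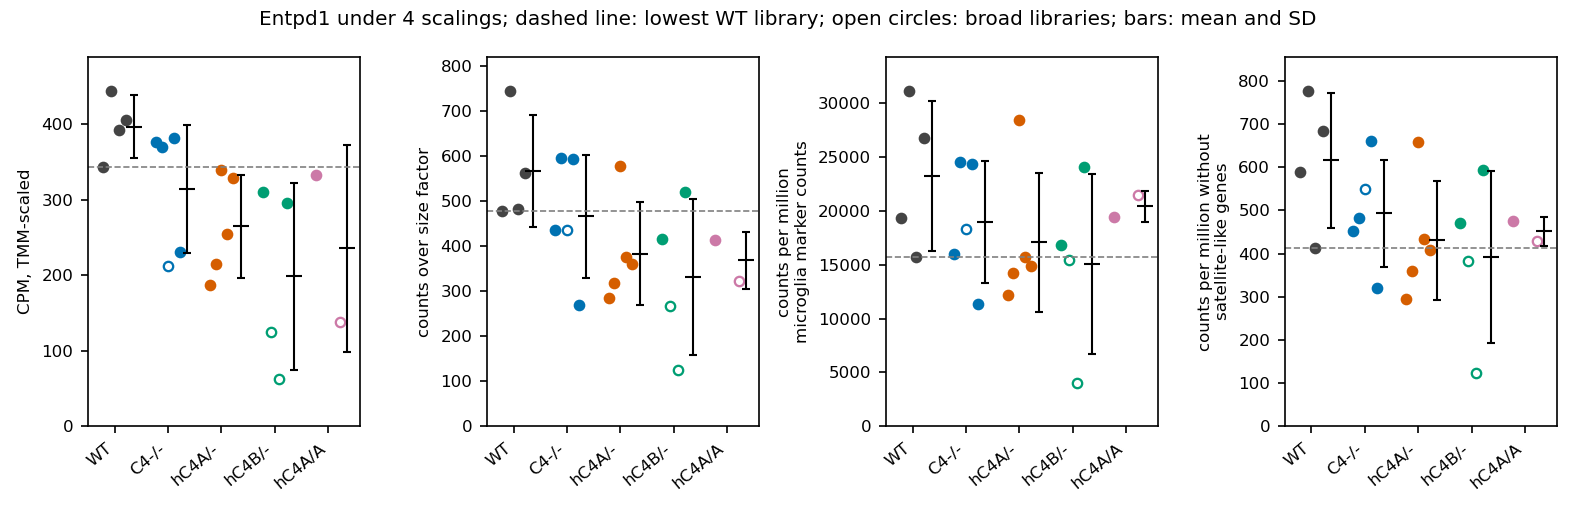
Entpd1 in the 20 libraries (x axis: genotype label) under 4 ways of scaling the libraries (y axes: CPM with TMM, counts over median-of-ratios size factor, counts relative to microglia marker counts, CPM without satellite-like genes). The dashed line is the lowest WT library, open circles are broad libraries, and bars are mean and SD; from left to right 0, 2, 5 and 6 of the 11 human C4 libraries lie above the line.

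Adora3 encodes the adenosine A3 receptor, which couples to inhibitory G proteins and is also known from mast cells. Its counts were 7, 4, 13 and 7 in WT and 24, 5, 26, 10 and 6 in C4-/-. They were 2, 3, 1, 0 and 13 in hC4A/-, 44, 9, 12 and 3 in hC4B/-, and 4 and 7 in hC4A/A. The count of 0 in hC4A/- replicate 4 allows a level of up to 1.76 CPM (3 counts), which covers counting error only. The hC4A/- libraries ran from 0 to 4.42 CPM and were the lowest genotype by mean. They overlapped C4-/- (3.99 to 17.04) only through 1 library of each genotype, and overlapped the other genotypes as well.

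The 2 smallest p-values of the 8 genes over 9 pairs were both those of Adora3. It averaged 1.62 ± 1.69 CPM in hC4A/-, against 10.002 ± 6.89 in hC4B/-, a log2 fold change of -2.53 ± 1.077 with a 95% interval of -4.83 to -0.24. Its unadjusted p was 0.0252 in edgeR's quasi-likelihood test and its adjusted p 0.254, in a pair where 16.7% of all genes tested had an unadjusted p under 0.05. Against C4-/- (8.97 ± 6.02 CPM) the log2 fold change was -2.37 ± 1.04 (95% interval -4.59 to -0.16), with an unadjusted p of 0.0292 and an adjusted p of 0.444, and 10.7% of all genes had an unadjusted p under 0.05. Both comparisons share the hC4A/- libraries. Neither passed with edgeR or DESeq2, and limma-voom called the first. Over 28 other settings, the fit without the broad libraries among them, the first fold change ran from -3.26 to -2.05. The second ran from -2.93 to -1.83, the latter without C4-/- replicate 3, which is broad. Tmigd3, the gene that shares exons with Adora3, held 170 counts in the 20 libraries and averaged 4.40 ± 3.05 CPM in hC4A/- against 6.51 ± 5.88 in hC4B/-. The 6 mast cell markers summed to 0 to 3.45 CPM in the 16 libraries that were not broad and to 5.24 to 22.03 in the broad ones, where Adora3 stood at 8.17 to 17.04 CPM. Of those 16 libraries, 3 had Adora3 above 8.17 CPM, the highest at 18.8 in hC4B/- replicate 1. The rise in the broad libraries was not particular to mast cell markers. Mean sums of lymphocyte and oligodendrocyte precursor markers were also higher there (12.1 and 16.9 CPM, against 1.15 and 2.41). That of astrocyte markers was lower (76.5 against 425 CPM). Of 1733 olfactory and vomeronasal receptor genes, 50.7% to 67.2% had a count there, against 5.37% to 35.5% in the other libraries. The part of the mast cell markers in the Adora3 values was not tested.

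**Figure D3:**
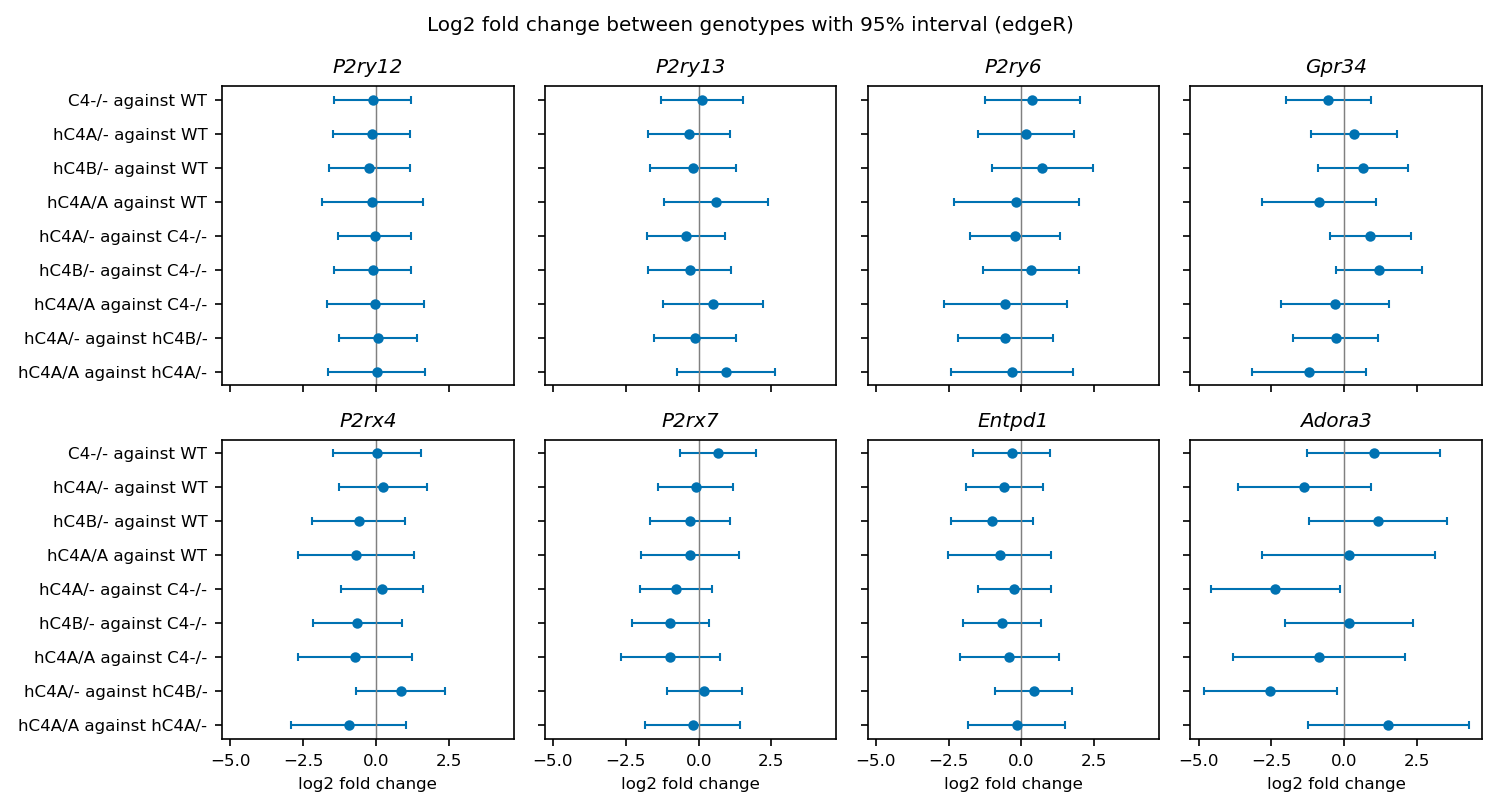
Log2 fold change (x axis, dots) with its 95% interval (bars) for each of the 8 genes in 9 of the 10 pairs of genotypes (y axis), from the edgeR fit to all 20 libraries. Only the 2 Adora3 intervals for hC4A/- against C4-/- and against hC4B/- leave out 0, before adjustment over all genes.

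Across 8 genes and the 9 pairs other than hC4A/A against hC4B/-, 0 of 72 differences passed at an adjusted p under 0.05 (edgeR), and the smallest adjusted p was 0.254. The same count was 0 of 12680 genes (0%) in each pair. At an unadjusted p under 0.05 the 8 genes gave 2 of 72, both Adora3, with 0 in the other 7 pairs. The share of all genes at that p was 8.55% for C4-/- against WT, 7.51% for hC4A/-, 13.1% for hC4B/- and 8.41% for hC4A/A. Against C4-/- it was 10.7% for hC4A/-, 4.52% for hC4B/- and 2.17% for hC4A/A, and it was 16.7% for hC4A/- against hC4B/- and 11.5% for hC4A/A against hC4A/-. In the added pair, hC4A/A against hC4B/-, 0 of 8 passed with edgeR, DESeq2 or voom. There 0 of 8 had an unadjusted p under 0.05 with edgeR, where 1.76% of all genes did. The count was 0 with voom (0.197% of all genes) and 1 with DESeq2 (Gpr34, beside 1.64% of all genes). With edgeR, fold changes there passed 1 on the log2 scale for 2 of the 8, Gpr34 and Adora3 (-1.02). In the 9 pairs DESeq2 called 0 of the 8 genes. limma-voom with quality weights called 3, namely Entpd1 lower in hC4B/- than in WT (adjusted p = 0.0494), and Adora3 lower (0.0333) and P2rx4 higher (0.0414) in hC4A/- than in hC4B/-. In those 2 pairs voom called 1106 and 1926 of all 12680 genes. The edgeR fold change passed 1 on the log2 scale in 8 of the 72. The share of all genes beyond 1 was not counted, so neither this count nor that of the added pair sets the 8 genes apart. The median log2 fold change of the 8 genes was 0.07 for C4-/- against WT, beside 0.33 over all genes tested. It was -0.12 for hC4A/- (all genes -0.05), -0.21 for hC4B/- (0.18) and -0.23 for hC4A/A (0.18). These 4 comparisons share the WT libraries. Standard errors ran from 0.57 to 1.39 on the log2 scale.

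The 8 genes differed in how steady they were across libraries. P2ry12 had a coefficient of variation (SD over mean) of 29.3% across all 20 libraries, against a median of 73.4% over 3996 genes with a mean of at least 20 CPM. Of those genes 4 were steadier: Kmt2d, Zfhx3, Elmo1 and Itm2c. The 20 microglia markers had a median of 49.8% and reached 82.7% (Aif1). Its highest library was 3.13 times its lowest, compared with 42.0 times for the protease gene Ctss. Entpd1 came next at 36.4%, with 36 genes steadier, followed by P2rx4 (53.9%), P2ry13 (55.4%), P2rx7 (59.1%), Gpr34 (60.1%) and P2ry6 (63.8%). Adora3, below the 20 CPM limit, was at 91.3%. This ranking was noticed after the values were seen and is given without a test.

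The place of P2ry12 rested in part on the broad libraries. Without them Entpd1 was the steadier, at 22.4% against 26.3% for P2ry12 (TMM scaling), followed by P2rx4 (33.6%) and Gpr34 (36.3%). That order also turned with the scaling: P2ry12 was the steadiest of the 7 with median-of-ratios scaling (24.9%, Entpd1 28.1%) and relative to microglia markers (28.9%, Entpd1 30.9%), and P2rx4 was (25.8%) with satellite-like genes left out. Under 3 other scalings of all 20 libraries its coefficient of variation was 23.4% to 29.4%, with 1 to 14 genes steadier. Without the broad libraries it was 24.9% to 28.9% over the 4 scalings, with 55 to 159 of 4030 genes steadier. Leaving out 1 library at a time gave 26.4% to 30.2% and 3 to 9 steadier genes. As a share of the summed microglia marker counts, P2ry12 was highest in hC4A/A at 4.40% ± 0.108, followed by hC4B/- (3.82% ± 1.25), WT (3.38% ± 1.19), C4-/- (3.31% ± 1.25) and hC4A/- (3.15% ± 0.728), so the order of means was not that of the CPM.

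**Figure D4:**
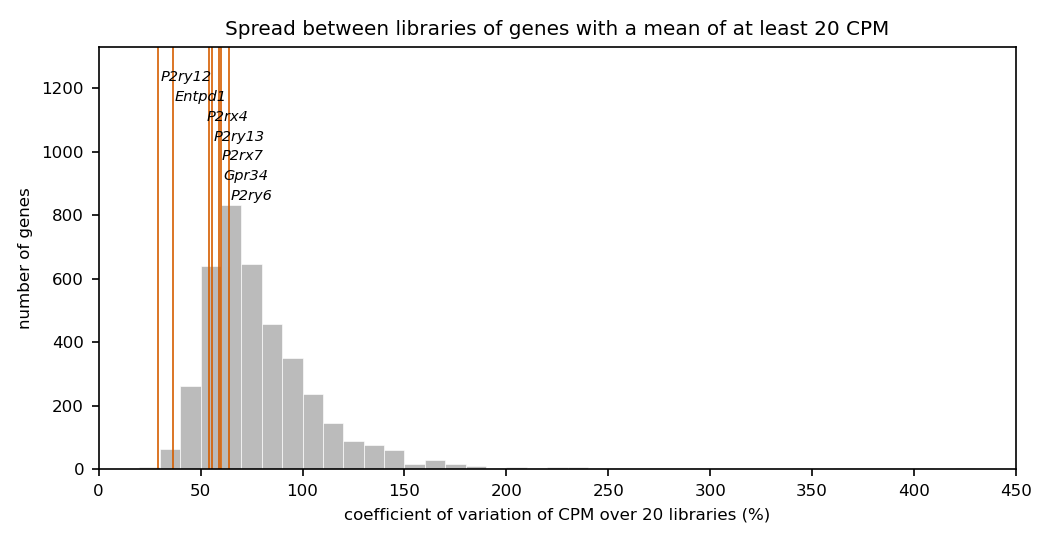
Coefficient of variation of CPM over the 20 libraries (x axis, percent) for the 3996 genes with a mean of at least 20 CPM (y axis: number of genes per bin of 10). Orange lines mark 7 of the 8 genes, P2ry12 at 29.3% on the left edge of the distribution and P2ry6 at 63.8% nearest its middle; Adora3 is below the limit.

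In the 4 broad libraries the 8 genes went different ways. P2rx4 (-2.32), Gpr34 (-1.67), Entpd1 (-1.35) and P2ry12 (-0.44) had lower medians there than in the other 16 libraries, on a log2 scale of medians of CPM plus 1. Adora3 (1.51), P2ry6 (1.25), P2ry13 (0.91) and P2rx7 (0.19) had higher ones. Over 3996 genes the median of this log2 ratio was -1.25, with quartiles of -2.32 and -0.17. P2rx4 lay at the lower quartile, Gpr34 and Entpd1 between it and the median, and the other 5 above the median. Gpr34 was under the lowest value of the other 16 (187 CPM) in 3 of the 4 broad libraries. For Entpd1, 1 of the 16 lay within the broad range of 62.6 to 212 CPM. Of the genotypes, 2 of 4 hC4B/-, 1 of 2 hC4A/A and 1 of 5 C4-/- libraries are broad, and 0 of WT and hC4A/-. Their part in the genotype means, beyond the values given without them, was not tested.

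Pairs of the 8 genes varied in how closely they followed each other across libraries. The closest pair by Spearman correlation of log2 CPM was P2ry12 and Entpd1, with 0.63 and a Pearson correlation of 0.67 over 20 libraries, and 0.44 and 0.54 over the 16. The libraries share depth and scaling, and the values are given as a description. P2ry13 and P2ry6 followed, with a Spearman correlation of 0.57 over 20 and 0.42 over 16 libraries. P2rx4 and Entpd1 had a Pearson correlation of 0.75 over all 20 libraries and -0.11 over the 16, so that relation rested on the broad libraries.

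Genes with the most similar pattern were ranked by Spearman correlation of log2 CPM over the 20 libraries, among 3982 genes. For P2ry12 they were Rhobtb1 (0.86), Tug1 (0.82) and Hnrnpdl (0.79), where 95% of candidates lay below 0.59. For Entpd1 they were Pik3cg, a phosphoinositide kinase subunit used by G protein-coupled receptors (0.89), C5ar1, the receptor for complement fragment C5a (0.88), and Gna13, a G protein subunit (0.84). These 3 kept 0.87, 0.79 and 0.70 without the broad libraries. P2rx4 was closest to Nav3 (0.91), Arid4a (0.90) and 4930518I15Rik (0.89), where 95% of candidates lay below 0.73. P2ry6 was closest to Tspan14 (0.87), Stard3 (0.87) and the fructose transporter gene Slc2a5 (0.85). P2ry13 was closest to Grina (0.82), Rassf2 (0.81) and Dync1h1 (0.80), and Gpr34 to Rbm3 (0.78), Cggbp1 (0.74) and Fam120a (0.72). Without the broad libraries the 3 values for Gpr34 were 0.63, 0.75 and 0.49. P2rx7 was closest to Chst15 (0.69), Prkce (0.66) and Arhgef7 (0.64), and Adora3 to Sipa1 (0.82), mt-Nd5 (0.82) and Lamp1 (0.80).

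Other genes of the pathway were taken from lists chosen by function. Of 18 other adenosine, nucleotide and P2Y-like receptors, 6 were tested and 0 passed in any of the 10 comparisons (edgeR), with 0 to 2 at an unadjusted p under 0.05 in a pair. DESeq2 also called 0, and voom 1 of 54 (1.85%, beside 2.66% of all genes over the 9 pairs), Lpar6 in hC4A/- against hC4B/-. The highest were Gpr183, the oxysterol receptor, at 78.2 ± 53.8 CPM (SD, n = 20), Lpar6 at 41.7 ± 27.5 and P2ry10b at 14.9 ± 14.7. Gpr183 averaged 126 ± 56.2 CPM in WT and 24.9 ± 19.7 in hC4A/A, which did not pass.

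Of 31 genes for cutting, carrying or recycling nucleotides and nucleosides, 17 were tested and 0 passed with edgeR (0 to 4 at an unadjusted p under 0.05 in a pair) or DESeq2, and voom made 5 calls over the 9 pairs (3.27% of tests, beside 2.66% over all genes). Their log2 fold changes against WT were above 0 for 12 of 17 in C4-/- (median 0.46), also for 12 in hC4A/- (0.49) and hC4B/- (1.09), and for 14 in hC4A/A (0.86), in comparisons that share the WT libraries. The medians over all genes were those given above, 0.33, -0.05, 0.18 and 0.18, and 60.9%, 48%, 54.6% and 54.6% of all genes were above 0. The highest were the lysosomal nucleoside transporter gene Slc29a3 (68.9 ± 50.9 CPM), with 31.3 ± 14.6 in WT and 112 ± 66.7 in C4-/-, Pnp (31.3 ± 21.0) and Hprt (29.4 ± 23.6). The 31 genes summed to 300.1 to 376 CPM in the broad libraries and to 148 to 378 in the other 16, and the part of the broad libraries in these medians was not tested. Of 15 genes linked to release of ATP, 10 were tested and 0 passed with edgeR (0 to 2 at an unadjusted p under 0.05 in a pair) or DESeq2, and voom made 2 calls (2.22%). Lrrc8a, the essential subunit of the volume-regulated anion channel, was the highest, at 850.2 ± 578 CPM and from 8.44 to 1988 across libraries, followed by Abcc1 (92.7 ± 98.3) and Calhm2 (14.8 ± 15.1).

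Of 36 genes that act downstream of these receptors, 33 were tested and 0 passed with edgeR, with 1 to 5 at an unadjusted p under 0.05 in a pair. DESeq2 made 2 calls over the 9 pairs, both of Gnas (0.673% of tests, beside 0.147% over all genes), and voom 10 (3.37%). The G protein subunit gene Gnb1 averaged 5245 ± 3498 CPM, Rap1b 523 ± 337 and Pik3cg 213 ± 85.5. Pik3cg was the gene most like Entpd1 over these same libraries, so its order of means is not a separate result. Pik3cg was highest in WT, at 332 ± 53.1 CPM, with C4-/- at 237 ± 59.5 and hC4A/A at 194 ± 99.0. hC4A/- stood at 156 ± 43.3 and hC4B/- at 146 ± 40.3 (adjusted p = 0.679 for any difference, edgeR). Of 32 immediate early genes and genes known to respond to tissue dissociation, 28 were tested. Their log2 fold changes against WT were below 0 for 19 of 28 in C4-/-, and with human C4 for 20 (hC4A/-), 22 (hC4B/-) and 21 (hC4A/A). Of all genes, 39.1%, 52%, 45.4% and 45.4% were below 0. The medians of the 28 were -0.74, -0.93, -1.33 and -0.86, beside 0.33, -0.05, 0.18 and 0.18 over all genes. Of the 28 genes, 0 passed in any pair with edgeR, with 0 to 9 at an unadjusted p under 0.05. DESeq2 made 3 calls over the 9 pairs, 2 of Ccl2 and 1 of Rhob (1.19% of tests, beside 0.147% over all genes), and voom 11 (4.37%, beside 2.66%). In the test over all 5 genotypes 1 of the 28 passed, the chemokine gene Ccl2 (adjusted p = 0.0192, edgeR), which was highest in WT (200.1 ± 64.8 CPM) and lower in hC4A/A (43.4 ± 52.2), hC4A/- (28.7 ± 30.3), C4-/- (15.9 ± 12.4) and hC4B/- (3.56 ± 2.97). The summed level of the 32 genes was 3207 ± 163 CPM in WT, 2488 ± 395 in hC4A/-, 2027 ± 714 in C4-/-, 1717 ± 1653 in hC4A/A and 1593 ± 871 in hC4B/-. The 4 broad libraries had sums of 548 to 1231 CPM and the other 16 of 1803 to 3450, without overlap. Nor did the sums of the 36 downstream genes overlap (1262 to 3409 against 5651 to 17152 CPM). Those of the 15 genes for ATP release did not either (121 to 381 against 512 to 2225). The sums of the other receptors and of the nucleotide handling genes did overlap. The sum of the 32 genes, like Entpd1, had its highest mean in WT and its lowest in hC4B/-. So did that of the downstream genes (9473 ± 5127 and 4988 ± 3569 CPM). The part of these sums in the Entpd1 values was not tested.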

How the data were processed

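Microglial RNA was sequenced in 20 libraries, each taken as 1 mouse. The authors deposited counts of reads per gene for each library, and per the submitters' processing notes STAR and edgeR were used with GRCm38; their versions are not stated in those notes. Unstranded counts were used as deposited, and summary lines (14.8% to 42.1% of reads unmapped) stayed out of library sizes. Such counts carry no molecular identifiers. Gene IDs were matched to GENCODE symbols (54809 of 54838). A deposited series table of the same counts was not used.

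The 8 genes and the lists were chosen with earlier results of these data known. edgeR 4.0.16 (R 4.3.3) fitted all 20 libraries with 1 coefficient per genotype: filterByExpr, TMM scaling, robust quasi-likelihood test, Benjamini-Hochberg adjustment over 12680 genes, threshold 0.05. The standard error is the log2 fold change over the square root of F, with 95% intervals on 15 degrees of freedom. The script was tested on simulated data. DESeq2 1.42.0, limma 3.58.1 (voom), other scalings, filters and library sets were alternatives. Fold changes were named for each gene's pair with the smallest p and for pairs at an unadjusted p under 0.05; for lists, the 3 highest genes and any that passed. No library was a copy of another of its genotype: chi-square per degree of freedom was 26.3 to 142 over 33 pairs. This check did not cover pairs across genotypes. Similar genes needed a mean of 20 CPM and a count in 15 libraries.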

Additional observations from a re-analysis of the deposited data

Results flagged for a closer look

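Among the 32 sets of 4 or 5 libraries of 1 genotype that were examined (8 genes in 4 genotypes), 3 held a library that stood apart from the others by Dixon's criterion, where chance gives about 1 in 20. P2ry12 was 876 CPM in hC4A/- replicate 5, with the other 4 at 378 to 469.6. P2ry6 was 84.7 CPM in the same library, with the other 4 at 13.04 to 28.7. Adora3 was 9.97 CPM in WT replicate 3, with the other 3 at 2.34 to 2.85. None of these libraries is broad.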

How the results depend on the processing

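Over 299 recounts of the 8 genes in the 9 pairs and the overall test, 297 gave the edgeR count of 0 passing. The exceptions were limma-voom with quality weights, which called 1 gene in hC4B/- against WT and 2 in hC4A/- against hC4B/-. The adjusted p for any difference among genotypes stayed above the threshold in all 231 recomputations. Of 266 fold changes, 255 kept direction and side of the threshold. P2rx4 in hC4A/- against hC4B/- turned to -0.0927 without the 4 broad libraries. P2ry12 in hC4B/- against WT turned to 0.0692 with RLE scaling, 0.0690 with DESeq2, 0.0486 with a stricter filter, 0.18 scaled to microglia markers, 0.18 without the broad libraries and 0.18 in a fit of the 2 groups alone; leaving out 1 library gave -0.385 to 0.0109, the latter without hC4B/- replicate 3. The cause was not tested.

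Counts over all genes, in the order C4-/-, hC4A/-, hC4B/- and then hC4A/A against WT, followed by hC4A/-, hC4B/- and hC4A/A against C4-/-, hC4A/- against hC4B/- and hC4A/A against hC4A/-, were 0 each with edgeR. DESeq2 called 20, 21, 53, 2, 10, 3, 0, 58 and 1, and voom 0, 6, 1106, 0, 1, 0, 0, 1926 and 0. Without a filter on low counts the numbers were 26, 65, 28, 3, 53, 16, 0, 36 and 0. For any difference edgeR called 15 genes, RLE scaling 24, DESeq2 65, voom 1, no filter 697, the set without broad libraries 2, and leaving out 1 library 0 to 34. RLE scaling moved the all-gene median against WT, on the log2 scale, to 0.39, -0.03, 0.53 and 0.48.

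By median, replicate numbers did not pair the libraries. Deviations of same-numbered libraries had a median correlation of 0.01 (33 pairs), against -0.00 for different numbers (124 pairs). The correlations ran from -0.38 to 0.72 and from -0.77 to 0.78. A median cannot show pairing of only some numbers. With the replicate block 0 of the 8 genes passed in any comparison, and for any difference 0 genes of all did. Adora3, at 200 counts in all, was left out by the stricter filter and by the low-count filter in the 4 fits of hC4A/- with 1 other genotype, and has no value there.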
